A study of Mus musculus with 27 samples.

Results

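AMPA and NMDA receptor subunits were followed in RNA bound to ribosomes in D1 and D2 neurons, the striatal projection neurons that express the dopamine receptor genes Drd1 and Drd2. Of 10 listed genes, 9 had a named probe set among 18193 gene symbols, and Grin1, the subunit required in NMDA receptors, was not analysed here because the array annotation used names no probe set for it. Values are log2 RMA signals of Affymetrix arrays, 1 array per sample, and a gene's value is that of its brightest probe set, by the mean of the 27 arrays. Testing required 3 or more arrays over 6, and 7 of the 9 passed, among 12017 genes: Gria1, Gria2, Gria3, Gria4, Grin2b, Grin2d and Grin3a.

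All mice were adult males, 2 to 5 months old, with both copies of G9a floxed, on a mix of C57BL/6 (the G9a line) and 129/Sv (the BAC line) with 2 generations of backcrossing. G9a, the product of Ehmt2, is a histone methyltransferase. Every group carried a ribosomal protein L10a fused to GFP, driven from a Drd1 or a Drd2 BAC transgene (genotypes Drd1-TRAP; G9a fl/fl and Drd2-TRAP; G9a fl/fl), and ribosomes were pulled down with antibodies to GFP. Mutants also carried Drd1-Cre in the D1 line or Drd2-Cre in the D2 line, whose labels read Drd-TRAP in the mutants. Controls carried no Cre, so loss of G9a and presence of Cre cannot be told apart, and the drivers act wherever the receptor genes are expressed. Mice received 8 injections of saline or of cocaine at 20 mg/kg/day and were taken 2 h after the last. The D1 arrays were 2 control saline, 4 control cocaine, 3 mutant saline and 4 mutant cocaine, and the D2 arrays were 3, 4, 3 and 4 in the same order. The array D2 mutant cocaine replicate 4 has a source name that says control, although its title and genotype say mutant, and the main results that rest on it are also given without it.

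AMPA receptors carry the fast excitatory current and are assembled as tetramers from the products of Gria1 to Gria4, of which the Gria2 subunit in its edited form keeps calcium out. NMDA receptors combine the Grin1 subunit with Grin2 subunits, which set the kinetics and magnesium block of the channel, or with Grin3 subunits. In striatal projection neurons these receptors receive the cortical and thalamic input, and changes in their subunits are known after cocaine.

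The targeted gene and the receptor genes followed the labels. Ehmt2 fell by 1.79 on the log2 scale in D1 mutants (adjusted p = 4.49e-10, limma) and by 1.82 in D2 mutants (adjusted p = 4.7e-11), and in controls Drd1 was 2.60 higher and Drd2 6.50 lower in D1 than in D2 arrays. In D2 mutants Drd2 read lower, 12.275 to 12.96 against 12.94 to 13.60 in D2 controls. Drd1 read higher there, 10.29 to 10.65 against 9.71 to 10.50 in D2 controls. D1 mutants read 6.62 to 7.10 for Drd2 and 12.23 to 12.85 for Drd1, so the receptor genes still separated the subtypes. Between 61.3% and 63.7% of gene symbols exceeded 6 per array. The choroid plexus gene Ttr was above 9.5 in 3 arrays, which were D2 control cocaine replicate 3, D1 control cocaine replicate 3 and D1 mutant saline replicate 3. In bulk RNA of this kind, fewer cells of a type and less RNA per cell cannot be told apart.

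The promoter of Gria4 is shown because Gria4 differed between D1 and D2 neurons and its window lies before the gene as annotated. It is the 250 bases before the start in RefSeq (GRCm38.p6), on the minus strand, at chr9:4796235-4796484, with every CG in capitals.
Gria4: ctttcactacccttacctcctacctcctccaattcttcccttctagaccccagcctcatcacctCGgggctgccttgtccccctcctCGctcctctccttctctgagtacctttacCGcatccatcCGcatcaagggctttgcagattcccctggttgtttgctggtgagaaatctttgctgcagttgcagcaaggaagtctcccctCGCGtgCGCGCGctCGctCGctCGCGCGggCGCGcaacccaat
CG, the DNA methylation site, occurred 16 times in the Gria4 window. Of 32851 promoters of this length, 25.4% held at least as many, and the median was 6. On either strand, the window held neither TATAAA, which 12.4% of promoters held, nor TGACGTCA, the cyclic AMP response element, which 1.55% held. Of the 10 listed genes, 5 had a promoter in the table used.

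D1 and D2 neurons of control mice were compared to ask which subunits separate the neuron types. Grin2b and Gria4 were higher in D1 neurons, by 1.72-fold and 1.46-fold, and Gria1 was lower, by 1.45-fold. Gria2, Gria3, Grin2d and Grin3a did not pass the test. So 3 of 7 tested members were called by limma at an adjusted p under 0.05, where 29.0% of all tested genes were called (1428 higher and 2052 lower in D1). The median difference of the 7 members was 0.08, and that of all genes -0.03.

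**Figure D1:**
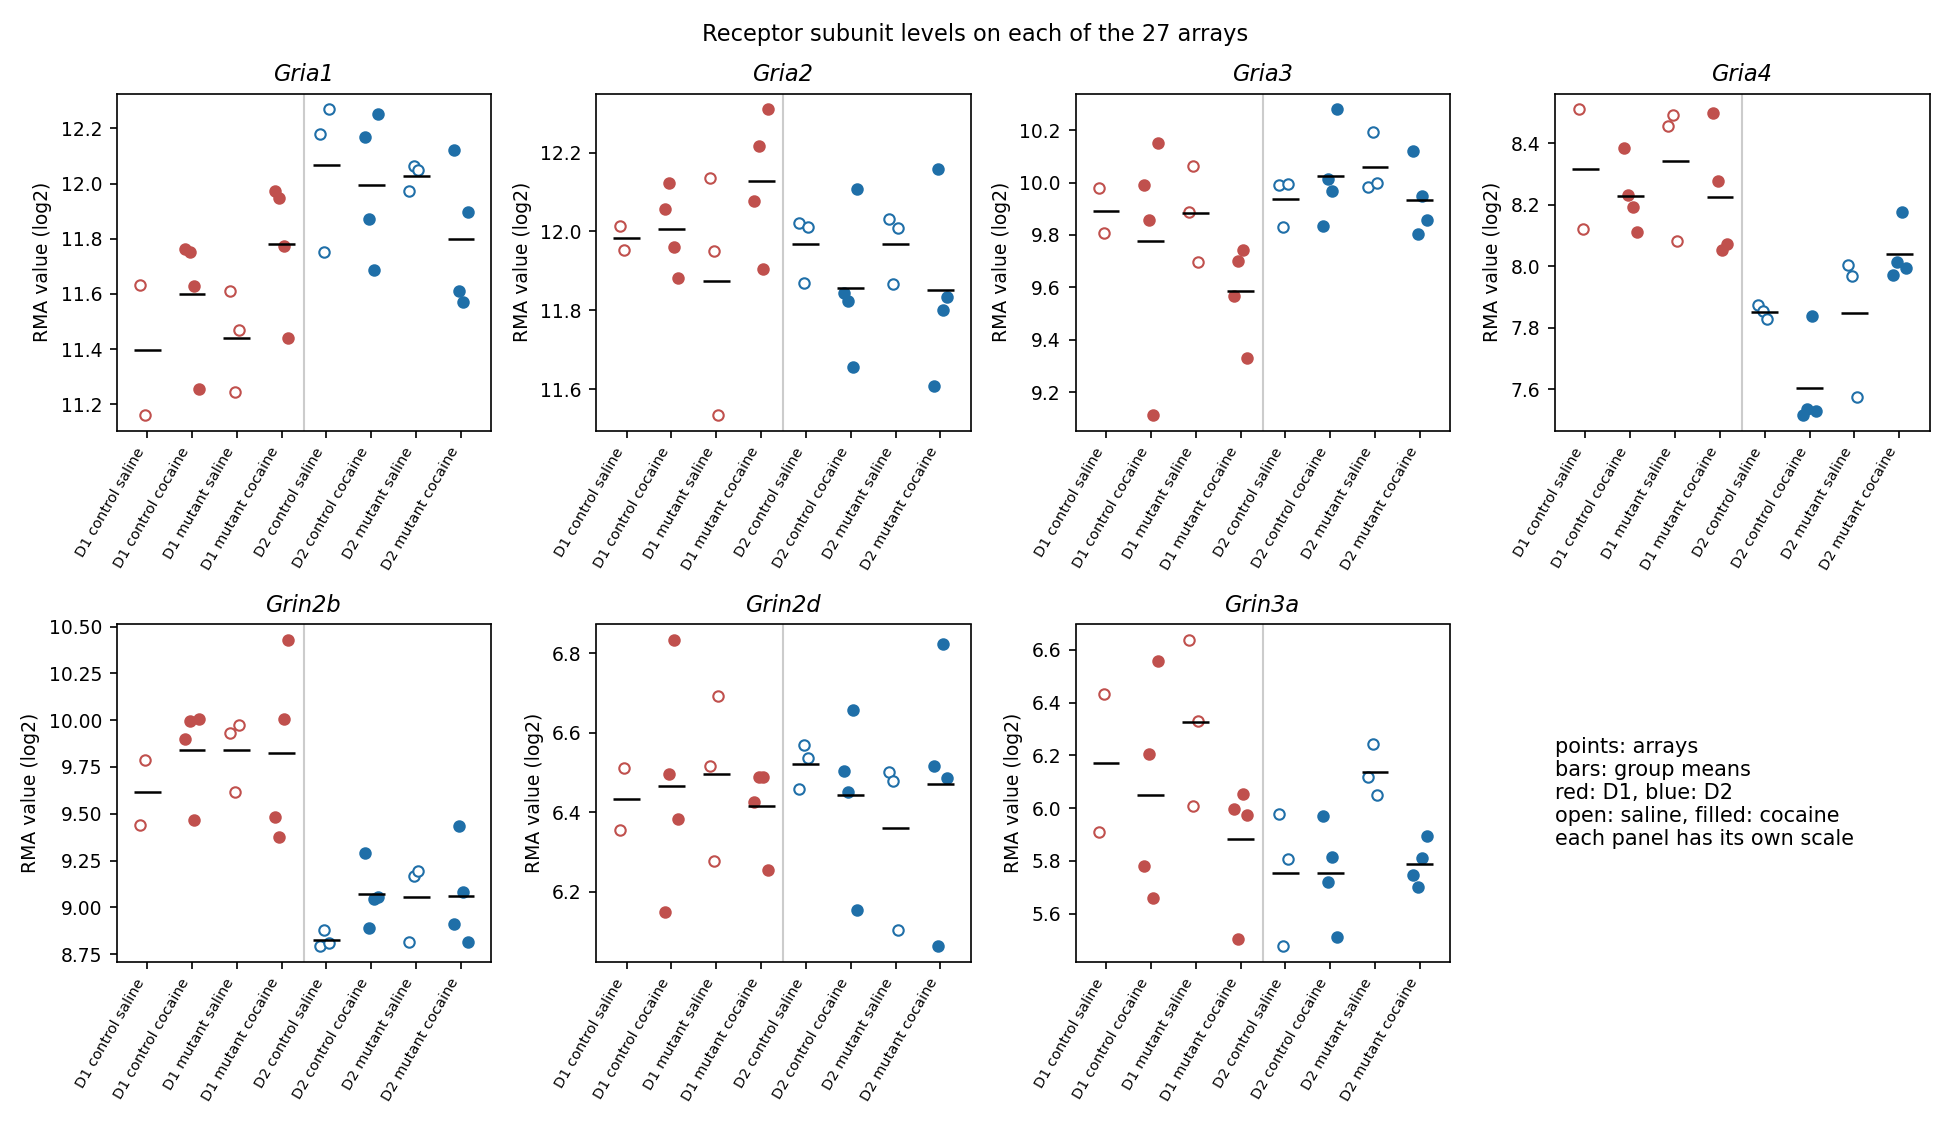
RMA values (log2) of the 7 tested subunit genes on each array, by group of subtype, genotype and drug (points, arrays; bars, group means; open, saline; filled, cocaine; each panel has its own axis range). Grin2b lay between 9.44 and 10.01 in D1 controls and between 8.79 and 9.29 in D2 controls, and Gria1 was lower on most D1 than D2 arrays.

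Gria1 encodes the AMPA subunit whose phosphorylation and insertion accompany synaptic strengthening. In D1 controls its probe set (1448972_at) read 11.63 and 11.16 with saline and 11.76, 11.75, 11.63 and 11.26 with cocaine. In D2 controls it read 12.18, 11.75 and 12.27 with saline and 12.17, 11.87, 11.69 and 12.25 with cocaine. The ranges met only at their edges: the 2 lowest D2 arrays (11.69 and 11.75) reached the highest D1 arrays (11.75 and 11.76). The difference, D1 minus D2, was -0.53 (SE 0.129, 95% interval -0.80 to -0.27, adjusted p = 0.00275). It was called without any 1 of the 13 arrays, with values from -0.65 to -0.42.

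Gria4 encodes the AMPA subunit best known from fast-spiking interneurons and thalamus. Its probe set (1435722_at) read 8.51 and 8.12 in D1 control saline arrays and 8.39, 8.23, 8.19 and 8.11 with cocaine. In D2 controls it read 7.87, 7.85 and 7.83 with saline and 7.51, 7.54, 7.84 and 7.53 with cocaine. All 6 D1 control arrays lay above all 7 D2 control arrays. The difference was 0.55 (SE 0.097, 95% interval 0.35 to 0.75, adjusted p = 0.000152).

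Gria2 encodes the subunit that governs calcium permeability. It ranged from 11.88 to 12.12 in D1 controls and from 11.66 to 12.11 in D2 controls, with a difference of 0.08 (95% interval -0.12 to 0.29, adjusted p = 0.586). Gria3 ranged from 9.11 to 10.15 in D1 controls and from 9.83 to 10.28 in D2 controls. Its lowest value came from D1 control cocaine replicate 3, an array with high Ttr, and the other 5 D1 control arrays started at 9.81. The Gria3 difference was -0.15 (95% interval -0.40 to 0.11, adjusted p = 0.415).

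Grin2b encodes an NMDA subunit with slow deactivation that is prominent in striatum. Its probe set (1457003_at) read 9.44 and 9.79 in D1 control saline arrays and 9.90, 9.99, 9.47 and 10.01 with cocaine. In D2 controls it read 8.79, 8.88 and 8.81 with saline and 9.29, 8.89, 9.04 and 9.06 with cocaine. Here too the 6 D1 arrays lay above the 7 D2 arrays. The difference was 0.78 (SE 0.146, 95% interval 0.48 to 1.08, adjusted p = 0.000266), and leaving out each of the 13 arrays gave 0.69 to 0.87, always called.

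Grin2d, an NMDA subunit of slow kinetics found mainly in interneurons and subcortical nuclei, stayed close to the threshold of 6, from 6.15 to 6.83 in D1 controls and from 6.16 to 6.66 in D2 controls. Its difference was -0.03 (95% interval -0.28 to 0.21, adjusted p = 0.872). Grin3a, whose product lowers the calcium permeability of NMDA receptors, exceeded 6 on 10 of 27 arrays, of which 7 were D1 arrays. Among controls it exceeded 6 on 3 of 6 D1 arrays and 0 of 7 D2 arrays. The Grin3a ranges were 5.66 to 6.56 in D1 controls and 5.48 to 5.98 in D2 controls, and they overlapped. The difference was 0.36 (95% interval 0.07 to 0.65, adjusted p = 0.0574), and it would have been called without any 1 of 5 arrays: D1 control cocaine replicate 1 (0.40, adjusted p = 0.0382), D1 control cocaine replicate 3 (0.42, 0.0179), D1 control saline replicate 1 (0.49, 0.0284), D2 control cocaine replicate 1 (0.39, 0.0413) or D2 control saline replicate 1 (0.41, 0.0391), all by limma. It was also called with array weights (0.37, adjusted p = 0.0271) and with the RNA quality covariate (0.36, 0.0485). Leaving out the 3 arrays with high Ttr gave a call as well (0.43, 0.0247). These were the only calls among 10 settings other than leaving out 1 array. Among the 13 control arrays, each left out in turn, only those 5 gave a call. There the value went down to 0.23 and the adjusted p up to 0.362, by limma. The other Grin3a probe sets (1458378_at and 1438866_at) exceeded 6 on 0 of 27 arrays.

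Grin2a and Grin2c did not exceed 6 on any array and were left out of the main tests. A limma fit without this filter called neither of them in any comparison. Grin2a, a subunit of faster NMDA receptors, ranged from 3.68 to 4.65 over the 27 arrays, and Grin2c, known from cerebellum and astrocytes, from 4.85 to 5.54. Each had a single named probe set, and a reading under the threshold does not show that the RNA was absent.

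Other probe sets of the same genes were fitted after the first results had been seen, each as its own feature. The other Gria1 probe set (1435239_at) was also lower in D1 controls, by -0.46 (SE 0.101, adjusted p = 0.00167). The next Gria4 probe set (1440891_at) differed by 0.55, as much as the brightest, but with an SE of 0.295 it was not called (adjusted p = 0.179). The next Grin2b probe set (1442370_at) differed by 0.61 (SE 0.246, adjusted p = 0.0706), while a dimmer one (1422223_at), over 6 on 4 arrays, differed by 0.06 (adjusted p = 0.701). So the Grin2b and Gria4 calls in controls rested on the brightest probe set, with the same direction in the next one. Grin3b, which is outside the list, differed by -0.02 (adjusted p = 0.875).

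**Figure D2:**
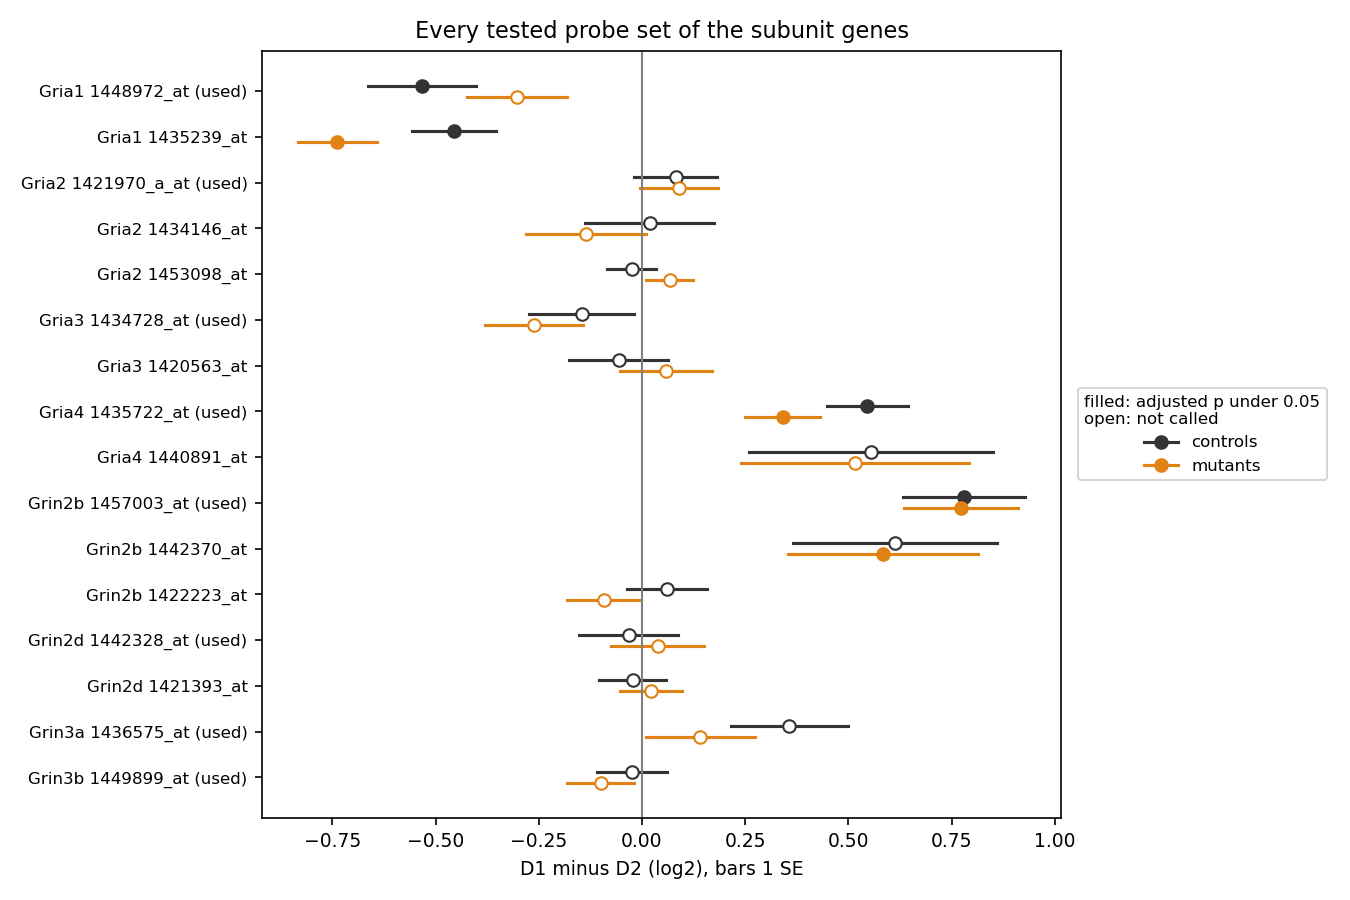
D1 minus D2 difference (log2, bars 1 SE) of every tested probe set of the subunit genes in controls (black) and mutants (orange), filled where the adjusted p was under 0.05. The 2 Gria1 probe sets were below 0, the 2 brightest of Gria4 and of Grin2b were above 0, and 1422223_at of Grin2b was near 0. The adjusted p comes from the fit to all probe sets, in which Gria1 1448972_at was not called in mutants (0.0532), and Grin3b is drawn although it is outside the list.

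Markers of cortical excitatory neurons moved with the subtype. Of 6 listed, 3 were tested and all 3 were higher in D1 controls (Nrn1 1.59, Neurod6 2.43, Neurod2 0.46), while Slc17a7, the vesicular transporter that defines these cells, stayed under 6 on every array (4.05 to 5.68) and Tbr1, which was not tested either, ranged from 3.37 to 6.90. Their mean was 5.50 to 7.87 in D1 controls, 5.89 to 8.41 in D1 mutants, 5.19 to 5.63 in D2 controls and 5.58 to 5.92 in D2 mutants. The 2 D1 control arrays with the lowest marker mean, cocaine replicate 3 (5.50) and saline replicate 1 (5.71), had the lowest Grin2b of the D1 controls, 9.47 and 9.44. Both still lay above every D2 control array, whose highest Grin2b was 9.29. In mutants, the D1 array with the lowest marker mean, cocaine replicate 2 (5.89), also had the lowest Grin2b of the D1 mutants, 9.37, and it lay below D2 mutant cocaine replicate 2 (9.43). The D1 mutant array with the next lowest marker mean, cocaine replicate 4 (6.81), had the highest Grin2b, 10.43. D1 mutant cocaine replicate 1, with a higher marker mean (7.79), had the next lowest Grin2b, 9.48. The 2 D1 control arrays with the lowest marker mean read 8.19 and 8.51 for Gria4, within and at the top of the D1 control range. Beyond these values the part of the cortical markers in the subtype differences was not tested. Oligodendrocyte markers moved the other way: 5 of 8 tested were lower in D1 controls and 6 of 8 in D1 mutants. Their part in the Gria1 difference was not tested apart from that of astrocyte markers. Of 7 tested astrocyte markers 2 were higher and 0 lower in D1 controls, so the 2 lists moved in opposite directions there. The mean of both lists was 7.95 in D1 controls and 7.97 in D2 controls. With this mean as a covariate Gria1 differed by -0.53 in controls (adjusted p = 0.00355, limma). That fit cannot show the part of either list, since their mean hardly differed. In mutants, where that mean separated the D1 from the D2 arrays, Gria1 differed by -0.29 (0.276). Interneuron markers averaged 6.19 to 6.50 in D1 controls and 6.51 to 6.92 in D2 controls, with 3 of 8 tested higher and 2 lower in D1, and their part in the Gria4 difference was not tested.

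The same comparison in mutants gave calls for Grin2b, Gria4 and Gria1 again, 3 of 7 members where 42.4% of all tested genes were called. Grin2b read 9.93, 9.62 and 9.98 in D1 mutant saline arrays and 9.48, 9.37, 10.01 and 10.43 with cocaine. In D2 mutants it read 8.81, 9.16 and 9.19 with saline and 8.91, 9.43, 9.08 and 8.82 with cocaine. A single D2 array, cocaine replicate 2 at 9.43, reached into the D1 range, above the lowest D1 array. The Grin2b difference was 0.77 (SE 0.137, adjusted p = 7.43e-05), close to the 0.78 in controls, and 0.73 (adjusted p = 0.000244) without the array of conflicting labels. The next probe set was called as well (0.58, adjusted p = 0.048), while the dimmer 1422223_at differed by -0.09 (adjusted p = 0.454).

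Gria4 read 8.46, 8.49 and 8.08 in D1 mutant saline arrays and 8.50, 8.28, 8.05 and 8.07 with cocaine. In D2 mutants it read 8.01, 7.97 and 7.57 with saline and 7.97, 8.01, 8.18 and 8.0 with cocaine. The ranges overlapped through D2 cocaine replicate 3 (8.18). The difference was 0.34 (SE 0.0907, adjusted p = 0.00376), and 0.33 (adjusted p = 0.00756) without the array of conflicting labels. The next probe set (1440891_at) differed by 0.52 and was not called (SE 0.276, adjusted p = 0.147).

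Gria1 read 11.61, 11.24 and 11.47 in D1 mutant saline arrays and 11.97, 11.95, 11.77 and 11.44 with cocaine. In D2 mutants it read 11.97, 12.06 and 12.05 with saline and 12.12, 11.61, 11.57 and 11.90 with cocaine. With saline all D2 arrays lay above all D1 arrays, and with cocaine the ranges overlapped. The difference was -0.30 (SE 0.12, adjusted p = 0.0459). The call was lost without D1 mutant cocaine replicate 3 or 4 (adjusted p = 0.0638 and 0.105), D1 mutant saline replicate 2 or 3 (0.121 and 0.0641), D2 mutant cocaine replicate 1 or 4 (0.0994 and 0.0766), or D2 mutant saline replicate 1, 2 or 3 (0.06, 0.0819 and 0.0772), with values from -0.32 to -0.25. Cyclic loess on top of the deposited values also ended it (-0.17, adjusted p = 0.295), whereas the other probe set was lower in D1 mutants by -0.74 (adjusted p = 1.79e-06). Over 13 settings other than leaving out 1 array, Gria1 was called in 7.

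The remaining members did not pass in mutants. Gria3 differed by -0.26 (adjusted p = 0.0763), Gria2 by 0.09 (0.468), Grin3a by 0.14 (0.413) and Grin2d by 0.04 (0.813). Gria2 was called after cyclic loess (0.23, adjusted p = 0.0215), where the share of higher genes among all calls moved from 39.1% to 52.2% in mutants and from 41.0% to 52.6% in controls. Astrocyte and oligodendrocyte markers averaged 8.22 to 8.53 in D2 mutants and 7.79 to 8.18 in D1 mutants, so they separated the arrays compared here. With that mean as a covariate Grin2b differed by 0.66 (adjusted p = 0.0197), Gria4 by 0.45 (0.0143) Gria1 by -0.29 (0.276) and Gria3 by -0.04 (0.895).

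**Figure D3:**
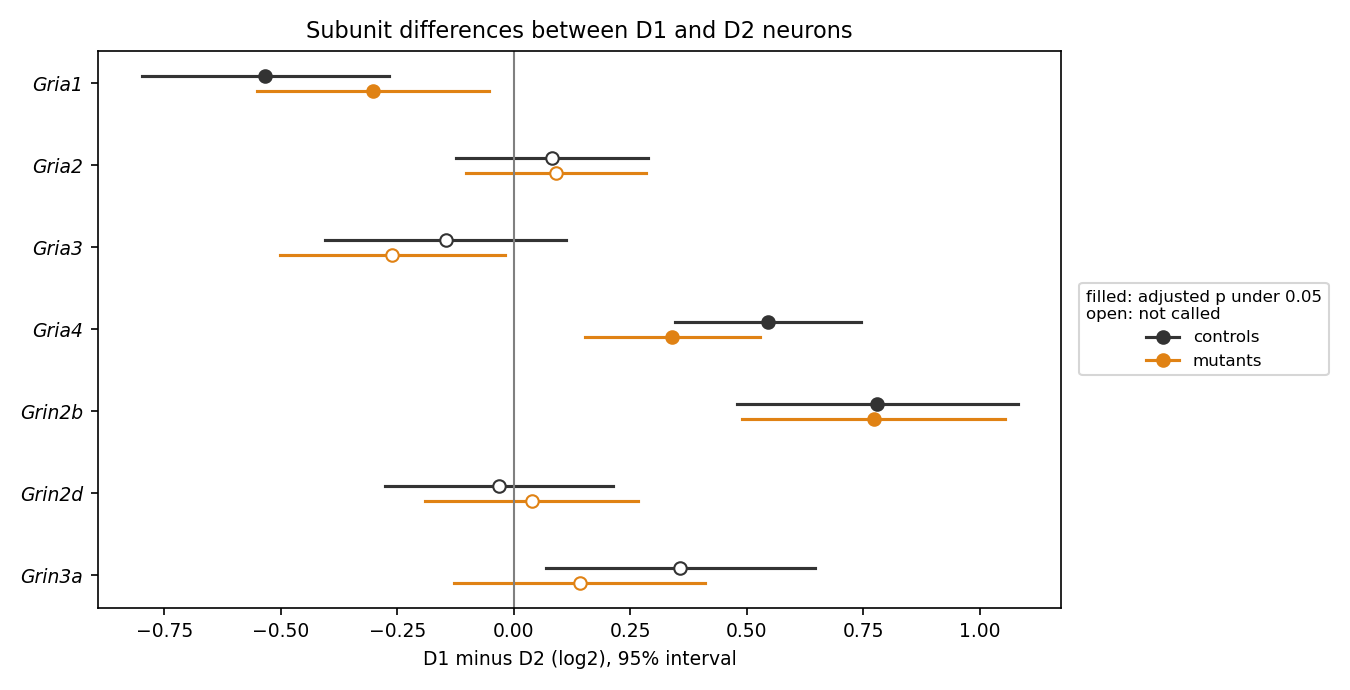
D1 minus D2 difference (log2) with its 95% interval for each tested subunit in controls (black) and mutants (orange), filled where the adjusted p was under 0.05. Grin2b (0.78 and 0.77) and Gria4 (0.55 and 0.34) lay above 0 and Gria1 (-0.53 and -0.30) below 0 in both genotypes.

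The balance of subunits was compared as the difference of 2 probe sets within an array, of which only the change between groups can be read. Gria1 minus Gria2 was lower in D1 than in D2 controls (difference -0.61), with arrays from -0.79 to -0.29 in D1 and from -0.12 to 0.33 in D2. The exact permutation test within drug gave p = 0.00143, the smallest that 700 relabelings allow, and 0.00762 adjusted over the 8 balance tests. The ranges did not overlap. Gria1 itself differed by -0.53 and Gria2 by 0.08, so this balance is mostly the Gria1 difference on the same arrays. It is not separate evidence. In mutants Gria1 minus Gria2 differed by -0.39 (exact permutation p = 0.0543, adjusted 0.109), and there the ranges overlapped. Without the array of conflicting labels it was -0.37 (adjusted exact permutation p = 0.169).

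Grin2b minus Grin2a was higher in D1 neurons by 0.70 in controls and 0.85 in mutants (exact permutation p = 0.00286 for each, adjusted 0.00762). Grin2a was below the threshold on every array, so its part in this balance was not resolved. Between mutants and controls neither balance passed. Gria1 minus Gria2 changed by 0.11 in D1 and -0.11 in D2, and Grin2b minus Grin2a by 0.21 and 0.06 (smallest adjusted exact permutation p = 0.606). Of that 0.21, Grin2b gave 0.10, and Grin2a, under the threshold, moved by -0.10. With the next brightest probe sets the control values were -0.47 for Gria1 minus Gria2 (adjusted exact permutation p = 0.114) and 0.53 for Grin2b minus Grin2a (0.08).

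Loss of G9a was compared within each neuron type, with the drugs weighted equally. These contrasts share their arrays with the subtype contrasts. In D1 neurons limma called 0 of 7 members, where 4.22% of genes were called, and 0 members against 1593 genes of 12017 had an unadjusted p under 0.05. The 7 differences lay between -0.10 (Gria3) and 0.11 (Gria1), with a smallest adjusted p of 0.799. The 95% interval reached from -0.20 to 0.41 for Grin2b, and from -0.19 to 0.21 for Gria4. The dim Grin2b probe set 1422223_at differed by -0.30 (adjusted p = 0.11, limma), against 0.10 for the brightest.

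In D2 neurons limma called 0 of 7 members too, where 12.2% of genes were called. An unadjusted p under 0.05 was seen for 1 member and for 3071 genes of 12017 (25.6%). That member was Gria4, at 0.22 (SE 0.0907, 95% interval 0.03 to 0.40, adjusted p = 0.13 by limma). Of the 4 D2 mutant cocaine arrays (7.97, 8.01, 8.18 and 8.0), all lay above the 4 D2 control cocaine arrays (7.51, 7.54, 7.84 and 7.53), while with saline the mutant mean was 7.85 and the control mean 7.85. The call appeared without D2 mutant saline replicate 3 (0.28, adjusted p = 0.0486), without the 3 arrays with high Ttr (0.26, 0.047) or with array weights (0.24, 0.0472). With the next Gria4 probe set the value was 0.03 (adjusted p = 0.964). Without the array of conflicting labels it was 0.22 (adjusted p = 0.15). Glial markers were higher in D2 mutants (8.22 to 8.53) than in D2 controls (7.47 to 8.20), and with them as a covariate the Gria4 value was 0.11 (adjusted p = 0.783). These marker ranges did not overlap, so that fit cannot tell glial markers from genotype. D1 neuron markers were higher as well, 4 of 8 tested, with a mean of 8.02 to 8.29 in D2 mutants and 7.45 to 8.0 in D2 controls, and so were interneuron markers, 2 of 8 tested, with a mean of 6.91 to 7.23 in D2 mutants and 6.51 to 6.92 in D2 controls. The part of both lists in the Gria4 value was not tested.

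Grin3a differed by 0.21 in D2 mutants (adjusted p = 0.332), Gria1 by -0.12 (0.585), Grin2b by 0.11 (0.66), Grin2d by -0.06 (0.764), Gria3 by 0.01 (0.956) and Gria2 by -0.003 (0.989). The difference between the mutant effects in D2 and D1 neurons is also the change of the subtype difference between genotypes. It was called for 0 of 7 members by limma (0.990% of genes), and 0 members and 1474 genes had an unadjusted p under 0.05. The values furthest from 0 were -0.23 for Gria1 (adjusted p = 0.664), 0.22 for Grin3a (0.727) and 0.20 for Gria4 (0.58). The other Gria1 probe set (1435239_at) went the opposite way, 0.28 for this difference (adjusted p = 0.48) and 0.28 for mutant minus control in D2 neurons (0.0639), by limma.

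**Figure D4:**
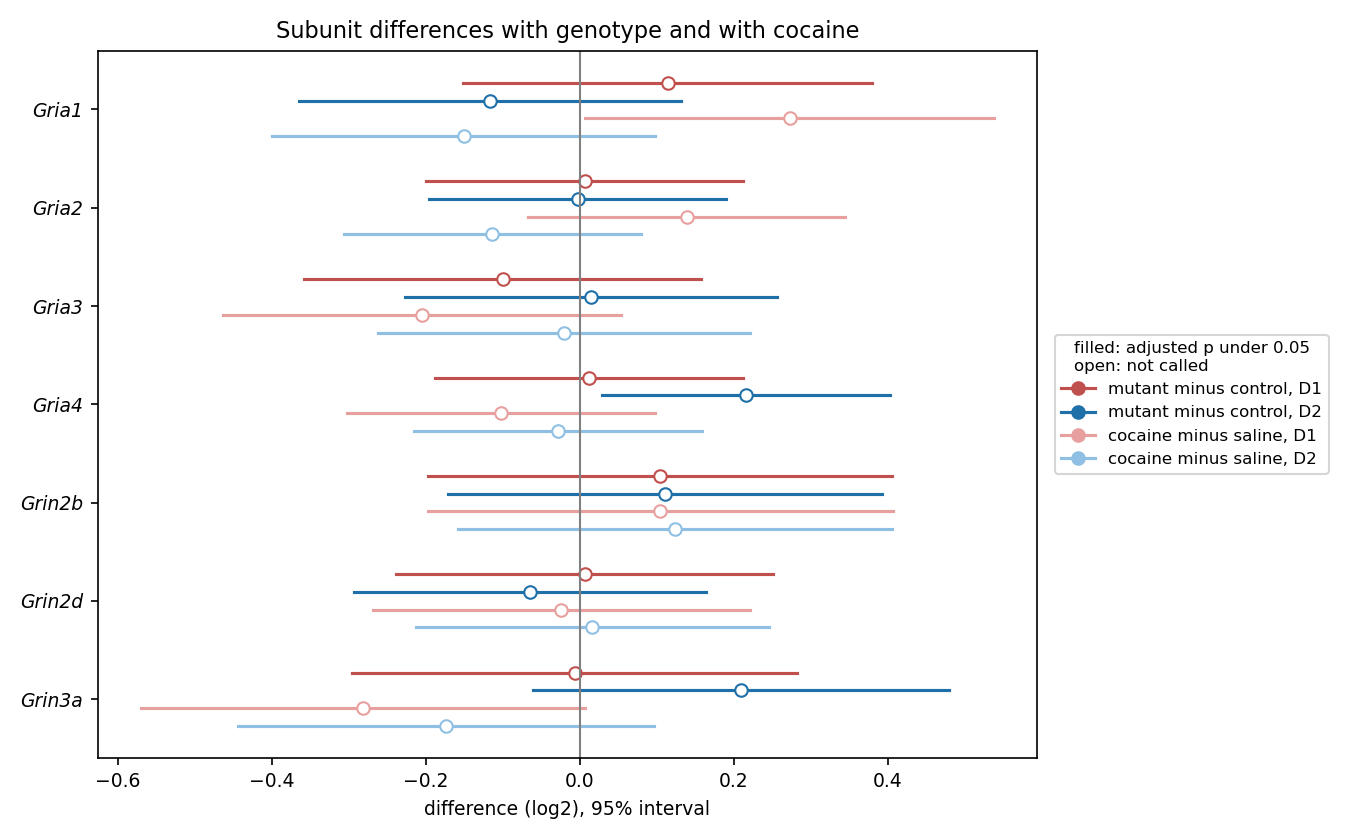
Mutant minus control and cocaine minus saline differences (log2) with 95% intervals for each tested subunit in D1 (reds) and D2 neurons (blues). All points are open because no adjusted p was under 0.05. The Gria4 interval for D2 mutants (0.03 to 0.40) and the Gria1 interval for cocaine in D1 (0.01 to 0.54) did not include 0.

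Repeated cocaine was compared with saline to ask whether subunit RNA on ribosomes changed 2 h after the last injection. Over both genotypes limma called 0 of 7 members in D1 neurons, where 0.749% of genes were called (1 member and 1373 genes had an unadjusted p under 0.05), and 0 of 7 in D2 neurons, where 0.133% were called (0 members and 1124 genes). Gria1 in D1 neurons differed by 0.27 (SE 0.129, 95% interval 0.01 to 0.54, adjusted p = 0.422 by limma). The 5 D1 saline arrays ranged from 11.16 to 11.63 and the 8 cocaine arrays from 11.26 to 11.97, so they overlapped. With array weights it would have been called (0.39, adjusted p = 0.0489), while the other Gria1 probe set (1435239_at) gave -0.07 (adjusted p = 0.881), the opposite direction. In D2 neurons Gria1 differed by -0.15 (adjusted p = 0.772).

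Grin3a in D1 neurons differed by -0.28 (95% interval -0.57 to 0.01, adjusted p = 0.447). Its saline arrays ranged from 5.91 to 6.64 and its cocaine arrays from 5.51 to 6.56. Gria3 differed by -0.21 (adjusted p = 0.56), Gria2 by 0.14 (0.634), Grin2b by 0.10 (0.855), Gria4 by -0.10 (0.753) and Grin2d by -0.02 (0.966). In D2 neurons the 7 values lay between -0.17 (Grin3a) and 0.12 (Grin2b), with a smallest adjusted p of 0.756.

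Within each genotype limma again called 0 of 7 members. The share of all genes called was 0.0666% in D1 controls, 0.0915% in D1 mutants, 0.133% in D2 controls and 0 in D2 mutants. An unadjusted p under 0.05 was seen for 1 member in D1 mutants, Grin3a, and for 0 members in the others (1402, 1412, 1130 and 588 genes in the same order). Grin3a read 6.64, 6.01 and 6.33 in D1 mutant saline arrays and 6.00, 5.51, 6.05 and 5.97 with cocaine. That difference was -0.44 (SE 0.185, adjusted p = 0.341 by limma), near the threshold of detection, and the groups overlapped at 6.01 and 6.05. In D1 controls the dim Grin2b probe set 1422223_at differed by -0.57 (adjusted p = 0.123, limma), against 0.23 for the brightest.

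The cocaine effect was also compared between mutants and controls, and limma called 0 of 7 members and 0 genes in either neuron type. In D1 neurons 0 members and 1340 genes had an unadjusted p under 0.05, and in D2 neurons 1 member and 583 genes. That member was Gria4, whose cocaine difference was -0.25 in D2 controls and 0.19 in D2 mutants, a gap of 0.44 (SE 0.181, adjusted p = 0.952 by limma). The next Gria4 probe set had a gap of -0.35 (SE 0.551), the opposite direction. The cocaine contrasts of D1 controls rest on 2 saline arrays.

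Genes that escort, anchor or modify the receptors were counted beside the subunits. Of 23 listed AMPA receptor auxiliary and assembly genes 21 were tested, and in D1 controls 10 were lower and 2 higher than in D2 controls, where 29.0% of all genes were called. The median of that list was -0.24, against -0.03 for all genes. Nptx2, a pentraxin that clusters AMPA receptors, was higher in D1 neurons by 1.46 (adjusted p = 1.65e-10, limma). Cnih3, a cornichon that escorts AMPA receptors to the surface, differed by -1.25 (adjusted p = 6.9e-08), and Lrrtm4, a synaptic adhesion protein, by -1.0 (adjusted p = 0.000293). In mutants 8 of the 21 were lower and 3 higher in D1 neurons, where 42.4% of all genes were called. The calls with the smallest p there were Cnih3 (-1.59), Nptx2 (1.21) and Nptx1 (1.54).

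Of 20 listed scaffolds 16 were tested, with 2 higher and 2 lower in D1 controls and 3 higher and 5 lower in D1 mutants, where 29.0% and 42.4% of all genes were called. In controls Akap5, which anchors kinases near the receptors, differed by 0.68, Dlgap1, a partner of the postsynaptic scaffold, by 0.78, and Shank3, a postsynaptic scaffold, by -0.49. Of 17 listed kinases and phosphatases 16 were tested, with 4 higher and 3 lower in D1 controls and 5 higher and 3 lower in D1 mutants. In controls Camk2d, a calcium/calmodulin kinase subunit, differed by 1.69, Prkca, a protein kinase C, by 1.09, and Ptpn5, a striatum-enriched phosphatase that acts on Grin2b, by -0.52. Each of these calls of D1 against D2 remained without any 1 of the 27 arrays.

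With loss of G9a in D1 neurons limma called 0 of these 21, 16 and 16 genes, where 4.22% of all genes were called. In D2 mutants it called 3 higher and 1 lower auxiliary gene, 1 higher scaffold, and 1 higher and 1 lower kinase, of 21, 16 and 16 tested, where 12.2% of all genes were called. Cnih3 rose by 0.58 (adjusted p = 0.00169), Nptx2 by 0.39 (0.0096), Homer2, a scaffold of metabotropic receptors, by 0.67 (9.26e-05) and Prkca by 0.46 (0.000882). Between D1 and D2 controls, Nptx2 and Prkca were themselves higher in D1 (1.46 and 1.09), Cnih3 was lower (-1.25) and Homer2 was not called. In D2 mutants 4 of 8 D1 neuron markers, 5 of 8 oligodendrocyte markers and 2 of 8 interneuron markers rose as well. The part of these cells in the rises was not tested. Cacng8, a transmembrane regulator of AMPA receptors, differed by -0.25 (adjusted p = 0.0432) and the kinase Src by -0.20 (0.0473), and these calls were lost without any 1 of 14 and of 15 of the 27 arrays. The D2 minus D1 difference of the mutant effects was called for Homer2 (0.67, adjusted p = 0.0366) and Prkca (0.63, 0.0142), where 0.990% of all genes were called. The Homer2 call was lost without any 1 of 16 arrays, with adjusted p up to 0.0992, and the Prkca call without D1 control saline replicate 1 (0.57, adjusted p = 0.0883).

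Of these genes only Nptx2 was called with cocaine in the comparisons run, by limma. It rose by 0.65 in D1 neurons over both genotypes (adjusted p = 0.004), where 0.749% of all genes were called. That call was lost without D1 control saline replicate 2 (0.56, adjusted p = 0.0786). In D1 controls alone, where 0.0666% of all genes were called, Nptx2 rose by 0.93 (adjusted p = 0.0303). There the call was lost without cocaine replicate 1 or 4 (0.0799 and 0.0828) or saline replicate 1 or 2 (0.156 and 0.382).

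The genes whose pattern over the 27 arrays was most like that of each subunit were found by Pearson's correlation, which reflects the subtype as well as any other difference the arrays share. For Grin2b they were Sestd1 (r = 0.93) and Irgq (0.92), and for Gria4 Dmkn (0.88) and Lrpap1 (0.86). Gria3 was closest to Pcmtd2 (0.88) and Lrrtm2 (0.83), Gria2 to Tyro3 (0.81) and Pdia6 (0.80), and Gria1 to Alkbh5 (0.76) and Dennd4b (0.75). Grin2d was closest to Aqp11 (0.83) and Ggt5 (0.82), and Grin3a to Me1 (0.81) and Stmn1 (0.81). Among the subunits themselves, Gria1 ran opposite to Grin2b (r = -0.65) and to Gria4 (-0.53) over the 27 arrays, and Grin2b ran with Grin3a (0.51) and Gria4 (0.51).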

How the data were processed

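The authors deposited log2 RMA values for 45101 probe sets and 27 arrays. The submitters' processing notes name RMA and Affymetrix Expression Console 1.1, whereas the series' design text names global scaling in the scanner software. RMA includes quantile normalization, so differences are relative. Of these probe sets, 64 were controls, 34945 had 1 gene symbol in the array annotation and 932 had several, and the latter were not used for genes. No genome build is given in the sources used here. The replicates are mice, per the labels, and their number limits the precision.

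All arrays were fitted in limma 3.58.1 (R 4.3.3) with a mean for each of 8 groups and 13 contrasts, with Benjamini-Hochberg adjustment of each contrast's p-values over its 12017 tested genes. A gene is said to rise, fall or be called at an adjusted p under 0.05. The 8 balance tests were exact, two-sided permutation tests within drug (Python 3.11.15). The code was tested on simulated data. The members and lists were chosen with earlier results of these data known. Named genes are all members, Ehmt2, Drd1, Drd2, up to 3 called genes per list and comparison by smallest p, and the 2 genes most correlated with each member. Named outside that rule, after their values were seen, were the cell markers, Ttr and Grin3b. Alternatives covered the probe set, filter, normalization, moderation, weights, covariates, replicate block and each array left out. Glial markers are the astrocyte and oligodendrocyte lists together. Promoters came from RefSeq.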

Additional observations from a re-analysis of the deposited data

Results flagged for a closer look

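The 9 measured members were checked in each of the 4 groups of 4 arrays, and in 2 of these 36 sets 1 array stood apart from the other 3, where chance gives about 1 in 20. Gria4 in D2 control cocaine replicate 3 read 7.84, while the other arrays of that group read 7.51 to 7.54 (gap over range 0.931). That array also had a high Ttr, 11.40. Grin3a in D1 mutant cocaine replicate 2 read 5.51, while the others read 5.97 to 6.05 (gap over range 0.853).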

How the results depend on the processing

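The number of members called kept its side in most settings, and no call turned its direction in any setting run. With the next brightest probe set, 1 member was called in D1 against D2 controls in place of 3. In mutant against control D2 neurons, 1 member was called with array weights and 1 without the 3 arrays with high Ttr, and 0 to 1 when each array was left out. In cocaine against saline D1 neurons, 1 was called with array weights. For the balances, the next brightest probe sets gave 0.53 (adjusted exact permutation p = 0.08) and 0.66 (0.0514) for Grin2b minus Grin2a in controls and mutants, and -0.47 (0.114) and -0.60 (0.0114) for Gria1 minus Gria2. The mean of probe sets gave 0.27 (adjusted exact permutation p = 0.114) for Grin2b minus Grin2a in controls and -0.53 (0.0114) for Gria1 minus Gria2 in mutants. Leaving out each array moved that last balance between -0.48 and -0.30 (adjusted exact permutation p from 0.04 to 0.226), and it passed only without D2 mutant cocaine replicate 2. The cause of these changes was not tested. Gria3 was called in D1 against D2 mutants with the RNA quality covariate (-0.31, adjusted p = 0.0268) and without the 3 arrays with high Ttr (-0.21, 0.0494), while the glial covariate gave -0.04 (0.895) and the next brightest probe set 0.06 (0.719). In those first 2 settings Gria1 lost its call in mutants (-0.29, adjusted p = 0.0642, and -0.31, 0.0548, by limma), so the members called changed although their number did not. With the replicate block, 3 members were called in D1 against D2 controls, 3 in mutants and 0 in every other comparison. Same-numbered arrays did not deviate together (mean r 0.03, from -0.39 to 0.47 over 35 pairs, against -0.01 over 100 pairs with different numbers), so the numbers were not taken as pairs. The block was not run for the balances. The number of all genes called moved more: over the settings planned at gene level, other than leaving out 1 array, it was 2557 to 4946 for D1 against D2 controls (3480 in the report), 2352 to 6040 in mutants (5091), 381 to 969 for loss of G9a in D1 (507), 533 to 2293 in D2 (1470) and 37 to 352 for their difference (119). With cocaine it was 31 to 547 in D1 (90), 10 to 240 in D2 (16), 0 to 461 in D1 controls (8), 6 to 218 in D1 mutants (11), 2 to 124 in D2 controls (16) and 0 to 10 in D2 mutants (0), and 0 to 54 for the genotype difference of the cocaine effect in D1 (0). The upper ends came from array weights. Testing every probe set gave 5660 and 8539 probe sets in D1 against D2 controls and mutants, which are not counts of genes. With the block the cocaine counts were 4 in D1 controls, 31 in D1 mutants and 30 in D2. Signal over background limits Grin2a, Grin2c and Grin3a, which read near or under 6.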
